A study of Homo sapiens with 60 samples.

Results

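The comparison described here is of HT29 cells exposed to a hot water extract of Atractylodis Rhizoma, the dried rhizome of Atractylodes plants used in East Asian herbal medicine, with HT29 cells given vehicle. HT29 is an established human colorectal adenocarcinoma line of epithelial origin. The 9 treated libraries, 3 each at 20, 100 and 500 µg/mL, were set against the 3 vehicle libraries, which makes 12 of the 60 libraries of the study. All were harvested after 24 h in the same serum-containing medium, and the labels name no genetic change in any group. The sample labels give the vehicle as 0.1% DMSO, while the series text names a higher concentration, and no label says how much DMSO the extract wells held. The other libraries come from 5 further herbal water extracts at the same 3 doses and from the PI3K inhibitors wortmannin and LY294002. Messenger RNA was sequenced, and the values are the deposited gene-level expected counts, which were scaled to library size to give levels in CPM. The labels do not say that replicates were separate cultures, so p-values measure only the spread between libraries. The spread of a gene was shared by the groups of all 60 libraries, so replicates that disagree in another extract widen it. The sample codes of the vehicle libraries open differently from those of the Atractylodis libraries, which share their code set with the Poria extract. What the code sets stand for is not stated, so extract and code set cannot be told apart in any comparison with vehicle.

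Colonic epithelial cells sense microbial products and inflammatory signals through receptors that activate the transcription factor NF-kB. Activated cells secrete chemokines that draw neutrophils and other leukocytes. They also make acute-phase and complement proteins, antimicrobial proteins, protease inhibitors, and the receptor that carries antibodies into the gut lumen. Many of these genes carry NF-kB sites close to their start and are low in resting cells.

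The genes that stood highest over vehicle included 6 CXC chemokine genes that lie together on chromosome 4, and the stretches upstream of their starts are shown because all 6 hold the same 9-base NF-kB motif. The motif searched was GGAATTTCC, on both strands, in the 250 bases before the start of each gene in RefSeq (GRCh38.p14). Capitals mark the motif in each 61-base window, and every window reads 5′ to 3′ on the strand of its gene.
CXCL1, chr4:73869289-73869349, plus strand: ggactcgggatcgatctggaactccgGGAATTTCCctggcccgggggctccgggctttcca
CXCL2, chr4:74099238-74099298, minus strand: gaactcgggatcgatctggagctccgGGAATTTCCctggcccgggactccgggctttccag
CXCL3, chr4:74038733-74038793, minus strand: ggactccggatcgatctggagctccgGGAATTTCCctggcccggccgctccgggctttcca
CXCL5, chr4:73998733-73998793, minus strand: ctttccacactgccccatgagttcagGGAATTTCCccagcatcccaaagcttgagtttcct
CXCL6, chr4:73836563-73836623, plus strand: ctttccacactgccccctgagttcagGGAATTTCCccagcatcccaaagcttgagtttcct
CXCL8, chr4:73740452-73740512, plus strand: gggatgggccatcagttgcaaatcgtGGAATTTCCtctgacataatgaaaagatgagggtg
The motif began 78 bases before the start in CXCL1 and CXCL3, 77 in CXCL2, 90 in CXCL5, 89 in CXCL6 and 91 in CXCL8. The windows of CXCL1, CXCL2 and CXCL3 resemble each other, as do those of CXCL5 and CXCL6. These are near-identical paralogs, so the authors' counting could have split shared reads between them and the level of each alone is uncertain.

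Over all promoters of the RefSeq table, 145 of 35116 (0.413%) held GGAATTTCC, and 62 of the 16256 promoters of genes tested here (0.381%) did. The broader NF-kB consensus, a 10-base pattern that contains the 9-base motif when a G precedes it or a C follows it, was in 3498 promoters of the table (9.96%) and in 1938 of those of tested genes (11.9%). Among the 20 genes that stayed higher with any library left out, described below, 16 could be matched to the table. They have 17 promoters in it, since IL32 has 2. GGAATTTCC was in 6 of the 17 (35.3%), those of the CXC cluster with its paralogs, and the motif or the consensus was in 11 (64.7%), while 12.1% of the promoters of tested genes held either. A match describes letters and is not a measured binding site, and these genes were chosen on their expression. CCL20 and LCN2, which lie on other chromosomes, hold the consensus in other letters. Their 250 upstream bases are shown with the match in capitals, which begins 79 bases before the start in CCL20 and 175 bases before it in LCN2.
CCL20, chr2:227813592-227813841, plus strand: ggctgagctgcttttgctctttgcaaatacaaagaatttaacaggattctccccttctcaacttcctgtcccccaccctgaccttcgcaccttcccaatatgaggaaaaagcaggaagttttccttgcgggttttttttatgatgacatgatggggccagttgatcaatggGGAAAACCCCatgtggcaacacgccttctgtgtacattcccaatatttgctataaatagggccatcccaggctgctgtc
LCN2, chr9:128149203-128149452, plus strand: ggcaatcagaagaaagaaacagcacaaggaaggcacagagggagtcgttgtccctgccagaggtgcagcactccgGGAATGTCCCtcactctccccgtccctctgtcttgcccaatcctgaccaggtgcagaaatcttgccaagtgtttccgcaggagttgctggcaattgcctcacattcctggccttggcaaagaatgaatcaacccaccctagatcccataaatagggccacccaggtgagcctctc
No match was found in the windows upstream of CEACAM7, DMBT1, IL4I1, LAS1L or PIGR.

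Of 16767 genes tested, 164 (0.978%) differed between the 9 treated and the 3 vehicle libraries at an adjusted p under 0.05 in edgeR's quasi-likelihood test, 97 higher (0.579%) and 67 lower (0.4%). Most differences were small. The median size among the 164 was 0.239 on the log2 scale, and 59 of the higher and 45 of the lower genes differed by less than 1.25-fold. At least 2-fold differences were seen for 20 higher genes (0.119%) and 4 lower genes (0.0239%). The 4 lower ones, named after their values were seen, were CYP1A1, AC084824.3, and AC141586.2 and AC093525.5, which had equal values in all 12 libraries and cannot be told apart. All 9 treated libraries lay above all 3 vehicle libraries for 80 of the 97 higher genes, and below them for 44 of the 67 lower genes. Over all genes tested, 379 (2.26%) had every treated library above and 389 (2.32%) every treated library below.

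The vehicle libraries did not behave alike. Without the vehicle library numbered 3, 23 genes differed, 22 of them among the 164. Without the one numbered 2, 46 did, and without the one numbered 1, 429 did. Leaving out a treated library gave 374 genes for the 20 µg/mL library numbered 1, 107 and 81 for those numbered 2 and 3, 93 for the 100 µg/mL library numbered 3 and 79 for the 500 µg/mL library numbered 1, and between 145 and 230 for the rest. Vehicle library 3 stood apart from the other 11 on the first principal component (34.6% of the variance) and had the largest mitochondrial share, 11.4% of counts against 8.61% and 9.90% in the other vehicle libraries and 6.97% to 9.47% in the treated ones. It was the vehicle library farthest from the treated ones for 60 of the 97 higher genes (61.9%) and 52 of the 67 lower genes (77.6%). The part of mitochondrial share in the results was not tested. Total counts of the 12 libraries ran from 21667031 to 29853567. All 12 colon epithelial markers were measured, with a summed level of 12120 to 12950 CPM in vehicle and 12340 to 13710 CPM in treated libraries. Of 8 leukocyte markers 4 could be tested, and their sum of 1356 to 1435 CPM in vehicle and 1344 to 1587 CPM in treated libraries was almost all LYZ, a lysozyme gene that intestinal Paneth cells also express, while the leukocyte marker PTPRC reached at most 0.0424 CPM. Of 8 fibroblast markers 2 could be tested, with sums of 2.18 to 2.55 CPM in vehicle and 2.00 to 2.56 CPM in treated libraries.

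Altogether 21 genes kept an adjusted p under 0.05 in each of the 12 fits that left out a single library, 20 of them higher and 1 lower. Of the 20 higher genes, 16 were at least 2-fold higher. They comprised 7 chemokine genes, a group of acute-phase, complement, antimicrobial and mucosal transport genes, and a few others.

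**Figure D1:**
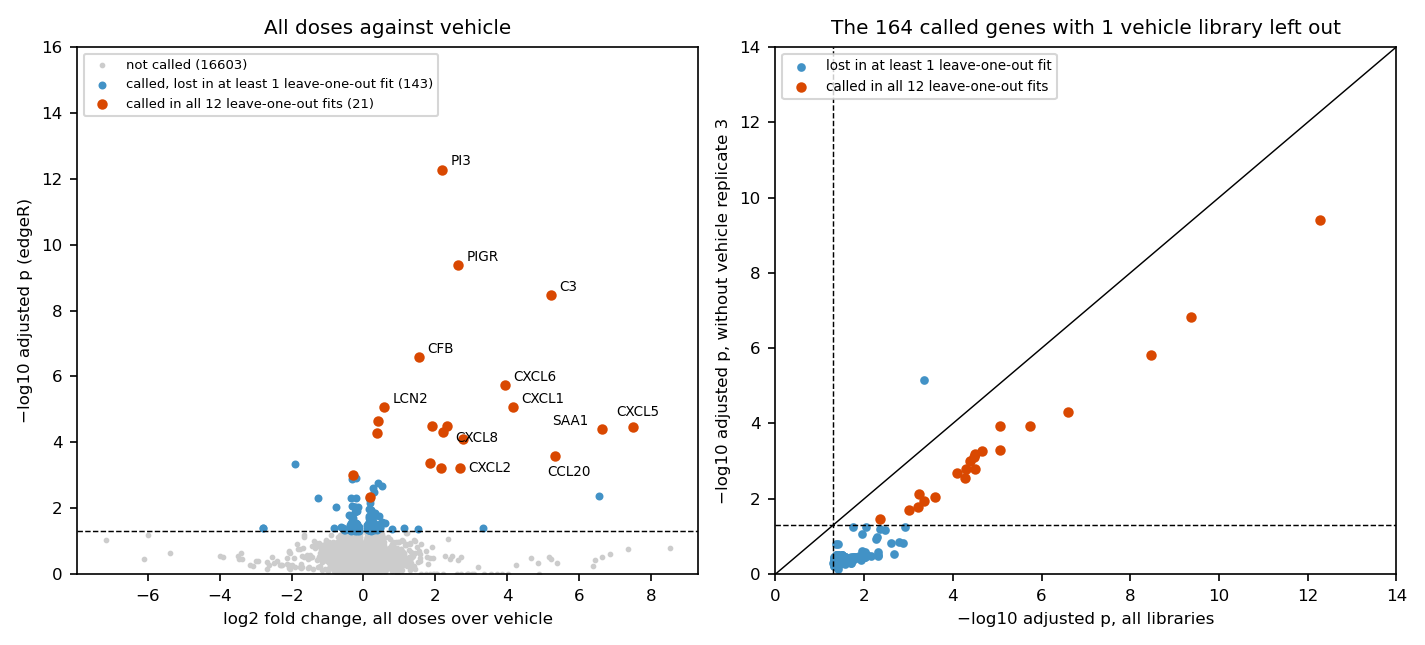
Left, log2 fold change of all doses over vehicle against −log10 adjusted p for the 16767 genes tested, each point a gene. Right, −log10 adjusted p of the 164 called genes with all libraries (x axis) and without vehicle library 3 (y axis), with dashed lines at 0.05. The 21 orange genes passed in all 12 leave-one-out fits, and the blue genes lost the call in at least 1 of them.

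All 6 neutrophil-attracting chemokine genes of the chromosome 4 cluster shown above were higher. CXCL1, a ligand of the receptor CXCR2 (chr4:73869393-73871242), was at 1.58, 1.93 and 2.25 CPM in the vehicle libraries and at 25 to 37.9 CPM in the treated ones, with a median of 35.2. The lowest treated library was far above the highest vehicle library. In bulk RNA, more expressing cells and more RNA per cell cannot be told apart. The difference was 17.9-fold (log2 4.17 ± 0.57 SE, adjusted p = 8.59e-06). CXCL8, the gene of interleukin-8 (chr4:73740506-73743716), was at 6.57, 6.33 and 5.88 CPM in vehicle and at 25.6 to 34.4 CPM in treated libraries, with a median of 31.7. Its groups did not overlap, and the difference was 5.01-fold (log2 2.32 ± 0.34 SE, adjusted p = 3.13e-05).

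The other members of the cluster were higher too, and had few counts in vehicle. CXCL6 was at 0.128, 0.288 and 0.265 CPM in vehicle and at 2.92 to 4.55 CPM in treated libraries (log2 3.95 ± 0.50 SE, adjusted p = 1.78e-06). CXCL3 rose from 0.811, 0.658 and 0.973 CPM to between 4.03 and 6.93 CPM (log2 2.76 ± 0.43 SE, adjusted p = 8.16e-05). CXCL2 rose from 0.341, 0.329 and 0.531 CPM to between 2.04 and 3.18 CPM (log2 2.68 ± 0.47 SE, adjusted p = 0.000588). None of these genes had a treated library within the vehicle range. CXCL5 had no count in any vehicle library and 12 to 33 counts in each treated library, at 0.451 to 1.35 CPM. Against a floor of 3 counts over the 3 vehicle libraries, it was at least 21.1-fold higher (adjusted p = 3.41e-05).

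CCL20, on chromosome 2 (chr2:227805739-227817564), encodes the ligand of CCR6, a receptor on dendritic cells and lymphocytes. It was at 0.171, 0.123 and 0.133 CPM in vehicle, from 10 counts in all, and at 4.45 to 6.99 CPM in treated libraries, with a median of 6.08 (log2 5.34 ± 0.88 SE, adjusted p = 0.000252). Without vehicle library 3 its adjusted p was 0.00916. IL17C, an epithelial cytokine that acts back on epithelium, was at 0.128, 0.164 and 0.0442 CPM in vehicle and at 0.871 to 1.56 CPM in treated libraries. Its groups were also separate, but the call (log2 3.33, adjusted p = 0.039) was kept in 5 of the 12 leave-one-out fits, with an adjusted p of 0.356 without vehicle library 3. The other at least 2-fold higher genes outside the 16 were ICAM1, the amino acid transporter SLC6A14 and the noncoding MIR3142HG, which had no count in vehicle and 4 to 15 in each treated library (adjusted p = 0.00439, and 0.0626 without vehicle library 3).

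An acute-phase gene and 2 complement genes were also higher. SAA1, which encodes the acute-phase protein serum amyloid A (chr11:18266174-18269977) and has a near-identical neighbour in SAA2, had no count in vehicle and 7 to 18 counts in each treated library. It was at least 11.2-fold higher by the same floor (adjusted p = 4.01e-05). C3, the central complement protein (chr19:6677704-6730562), had 2, 2 and 0 counts in vehicle and 47 to 67 counts in each treated library. Its summed ratio was 40.3-fold, with a 95% counting interval of 15.6 to 148 (adjusted p = 3.4e-09). CFB, factor B of the alternative complement pathway (chr6:31945650-31952084), was at 1.37, 1.52 and 1.28 CPM in vehicle and at 3.69 to 4.64 CPM in treated libraries (log2 1.53 ± 0.18 SE, adjusted p = 2.54e-07). The 3 genes thus separated the groups in every library. SERPINA1, another acute-phase gene, did not pass, at 441 to 491 CPM in vehicle and 382 to 476 CPM in treated libraries (log2 −0.195, adjusted p = 0.134).

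Several genes with roles in mucosal defence were higher as well. PI3, the gene of the elastase inhibitor elafin (chr20:45174876-45176544), was at 6.40, 6.29 and 6.59 CPM in vehicle and at 25 to 30.9 CPM in treated libraries, with a median of 30.1. This 4.58-fold difference (log2 2.20 ± 0.17 SE) had the smallest adjusted p of the comparison, 5.29e-13. PIGR, the receptor that carries polymeric IgA across the epithelium (chr1:206928518-206946466), was at 0.683, 0.904 and 0.840 CPM in vehicle and at 4.27 to 6.21 CPM in treated libraries (6.24-fold, log2 2.64 ± 0.25 SE, adjusted p = 4.28e-10). DMBT1, a secreted scavenger receptor that binds bacteria, rose from 0.256, 0.288 and 0.309 CPM to between 1.06 and 1.64 CPM (log2 2.21 ± 0.34 SE, adjusted p = 5.02e-05). LCN2, which encodes the siderophore-binding protein lipocalin-2 (chr9:128149071-128153455), was already at 107, 121 and 123 CPM in vehicle and was at 154 to 188 CPM in treated libraries, with a median of 174. Its difference of 1.48-fold (log2 0.57 ± 0.08 SE, adjusted p = 8.59e-06) was small beside those of the chemokines, yet no treated library reached down to the vehicle range. Of the 12 tested members of the mucosal defence list, PIGR, DMBT1 and LCN2 were higher in all 12 leave-one-out fits. REG4 was lower, and the list's median was 0.107 against −0.00385 over all genes tested, of which 0.579% were higher and 0.4% lower.

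The remaining higher genes that withstood every omission had mixed roles. IL4I1, a secreted amino acid oxidase, was at 0.341, 0.206 and 0.265 CPM in vehicle and at 0.978 to 1.57 CPM in treated libraries (log2 2.16 ± 0.38 SE, adjusted p = 0.000599). CEACAM7, an adhesion molecule of differentiated colonocytes, was at 0.341, 0.493 and 0.531 CPM against 1.16 to 2.05 CPM (log2 1.91 ± 0.28 SE, adjusted p = 3.13e-05). IL32, an intracellular and secreted cytokine, was at 0.299, 0.329 and 0.309 CPM against 0.788 to 1.65 CPM (log2 1.86 ± 0.32 SE, adjusted p = 0.000439). These 3 genes had few counts, yet in each the lowest treated library exceeded the highest vehicle library. SLFN5, an interferon-inducible Schlafen family gene, was at 29.6, 28.2 and 29.6 CPM in vehicle and at 35.4 to 41.7 CPM in treated libraries (log2 0.39 ± 0.06 SE, adjusted p = 2.22e-05). PDZK1IP1, a small membrane protein of epithelial cells, was at 11.5, 11.4 and 11.2 CPM against 13.8 to 15.8 CPM (log2 0.38 ± 0.06 SE, adjusted p = 5.2e-05). LAS1L, a factor of ribosomal RNA processing, had the smallest of these differences, 0.18 on the log2 scale. The single lower gene was UST, which encodes uronyl 2-sulfotransferase (chr6:148747328-149076990). Its vehicle libraries were at 16.4, 16.2 and 16.4 CPM and its treated libraries at 11.8 to 14.9 CPM (log2 −0.30 ± 0.05 SE, adjusted p = 0.000952).

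**Figure D2:**
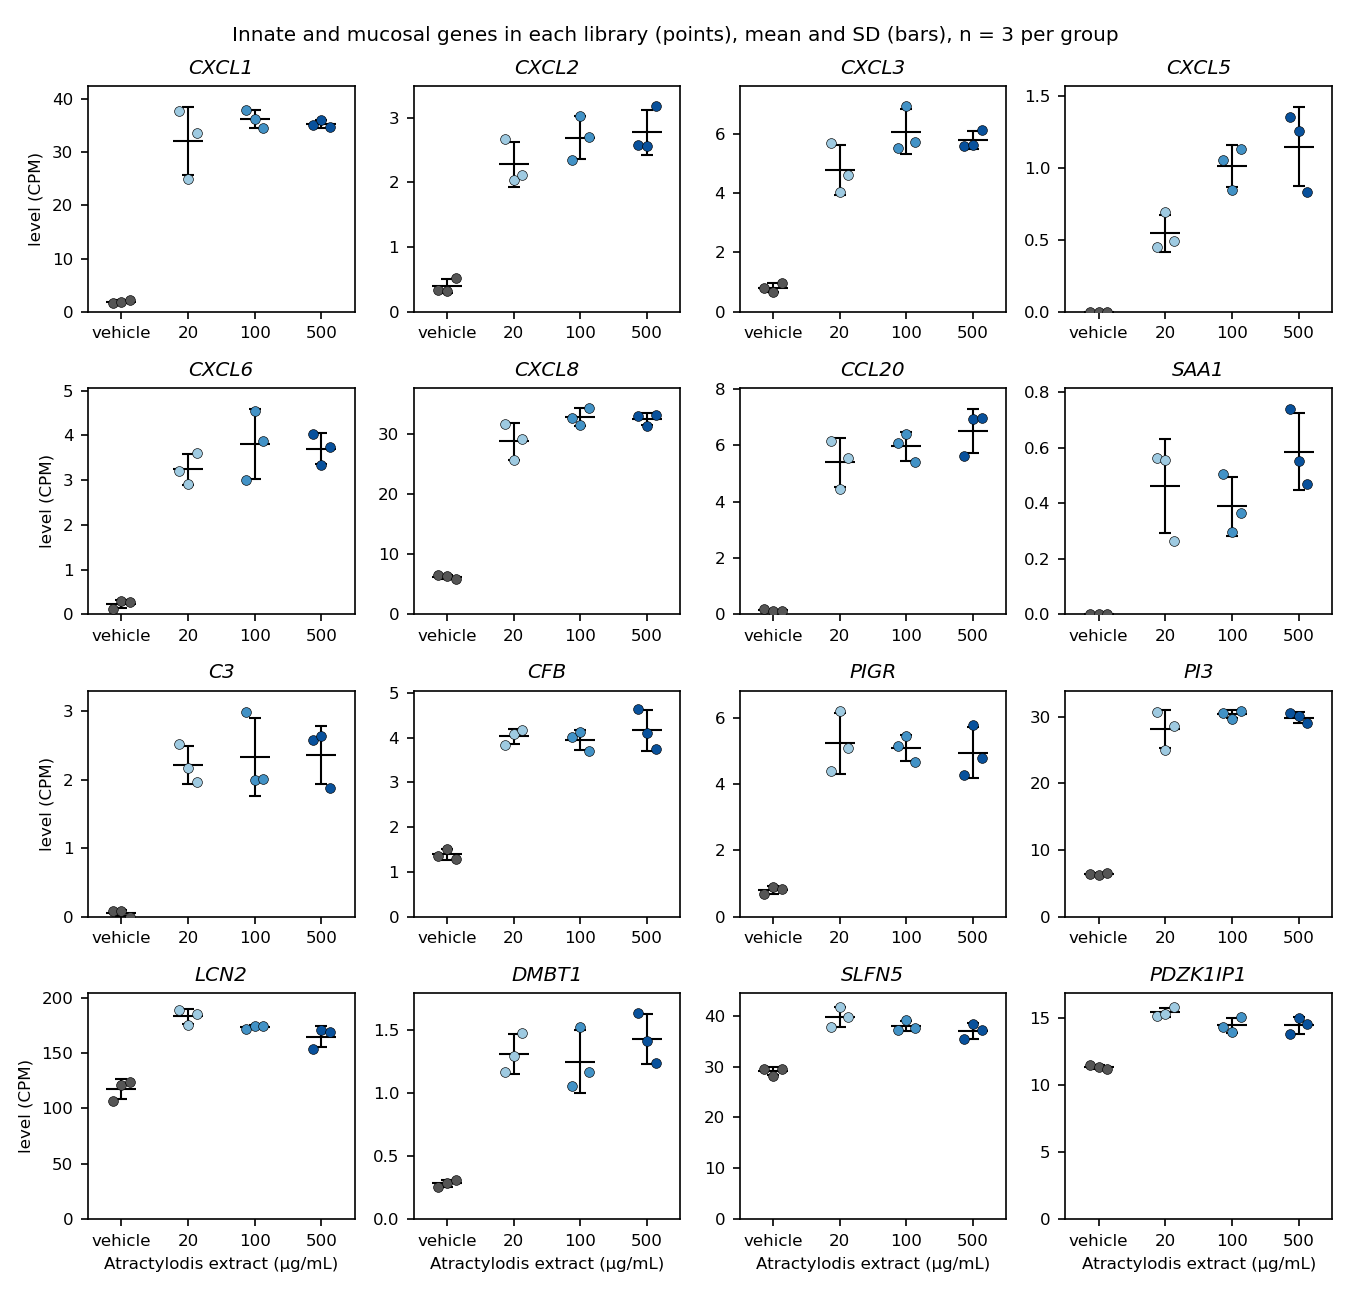
Level in CPM of 16 genes in vehicle and at 20, 100 and 500 µg/mL of the extract, each point a library and each bar the mean with its SD (n = 3 per group), on axes that start at 0. In every panel the 9 treated libraries lie above the 3 vehicle libraries, and the 3 dose groups lie close together for most genes.

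The list of NF-kB targets and chemokines held 23 tested genes, of which 13 were higher and none lower, with a median log2 difference of 0.692. Over all genes tested 0.579% were higher and 0.4% lower, with a median of −0.00385. The gene lists were chosen with earlier results of these data known. Leaving out single libraries gave 10 to 13 higher members, with the fewest without vehicle library 3, and 14 of 22 were higher when only the 12 libraries entered the fit. Beside the genes above, the 13 include ICAM1, SOD2 and TNFAIP2. ICAM1, the adhesion molecule bound by leukocyte integrins, was at 4.27, 5.10 and 4.16 CPM in vehicle and at 8.25 to 11.4 CPM in treated libraries (log2 1.12 ± 0.29 SE, adjusted p = 0.0409). That call was kept in 6 of the 12 leave-one-out fits, and the adjusted p was 0.354 without vehicle library 3. SOD2, the mitochondrial superoxide dismutase, was at 74.6, 71.3 and 63.7 CPM against 86.9 to 102 CPM (log2 0.40, adjusted p = 0.00166, and 0.139 without vehicle library 3). TNFAIP2, a TNF-inducible gene, was at 91.0, 87.9 and 91.3 CPM against 107 to 122 CPM (log2 0.34, adjusted p = 0.0384, and 0.314 without vehicle library 3). The members that restrain the pathway or form it did not pass the test in the fit of all 60 libraries. A missed call does not show that a gene was unchanged. The inhibitor NFKBIA was at 28.3, 27.3 and 27.1 CPM in vehicle and at 27.2 to 34.6 CPM in treated libraries, with overlapping groups (log2 0.16, adjusted p = 0.366). The log2 difference was 0.49 for TNFAIP3 (adjusted p = 0.123), 0.69 for BIRC3 (adjusted p = 0.0737), 0.37 for RELB (adjusted p = 0.136), 0.27 for NFKB2 (adjusted p = 0.0729) and 0.12 for NFKB1 (adjusted p = 0.0787). TNIP1, an inhibitor outside the list and named after its values were seen, was at 97.5, 96.1 and 99.0 CPM against 108 to 116 CPM (log2 0.20, adjusted p = 0.0111, and 0.0863 without vehicle library 3). None of the 8 tested members of the list of p38, JNK and innate sensor genes passed, with a median of 0.0659.

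The 3 doses gave much the same levels. Against the same 3 vehicle libraries, which the comparisons share, 42 genes differed at 500 µg/mL (0.25%), 33 higher (0.197%) and 9 lower (0.0537%). At 100 µg/mL 61 differed (0.364%), 37 higher (0.221%) and 24 lower (0.143%). At 20 µg/mL 23 differed (0.137%), all of them higher. Without vehicle library 3 the counts at 500 and 100 µg/mL were 21 and 23, and without vehicle library 1 they were 112 and 147. Leaving out the treated library numbered 1 or 2 gave 22 or 24 at 500 µg/mL, and the one numbered 1, 2 or 3 gave 34, 28 or 39 at 100 µg/mL. At 20 µg/mL 35 differed without the treated library numbered 1. Of the 20 higher genes that withstood every omission, 19 were called at 20 µg/mL, 20 at 100 µg/mL and 19 at 500 µg/mL, LAS1L being the exception at 20 and at 500 µg/mL. These genes were chosen on the same treated and vehicle libraries, so the counts only describe them. Their median log2 difference was 2.2 at 20 µg/mL, 2.35 at 100 µg/mL and 2.34 at 500 µg/mL.

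Compared directly, 500 and 20 µg/mL differed in no gene (0%) by edgeR or by DESeq2, while 857 genes (5.11%) had an unadjusted p under 0.05 in edgeR. A test for any difference among the 3 doses gave 0 genes with either tool, with 667 (3.98%) at an unadjusted p under 0.05. CXCL1 was at 32.1 ± 6.46 CPM at 20 µg/mL, 36.2 ± 1.70 at 100 µg/mL and 35.3 ± 0.722 at 500 µg/mL (SD, n = 3 each). The log2 difference of 500 from 20 µg/mL was 0.13, with a 95% interval from −0.74 to 1.01. CXCL8 gave 28.8 ± 3.07, 32.9 ± 1.46 and 32.5 ± 1.05 CPM at the rising doses, and a difference of 0.17 (−0.48 to 0.82). PI3 gave 28.1 ± 2.86, 30.4 ± 0.633 and 29.9 ± 0.788 CPM, and a difference of 0.08 (−0.24 to 0.41). These intervals leave room for dose differences, most of all for CXCL1, and none was detectable. LCN2 went the other way in its means, at 182.9, 173.6 and 164.6 CPM, with a difference of −0.15 (−0.34 to 0.03). CXCL5 had the largest dose difference of the 20 genes, with means of 0.546, 1.01 and 1.15 CPM and a log2 difference of 1.07 (unadjusted 95% interval 0.23 to 1.92), which did not pass adjustment over all genes. Across the 20 genes the difference of 500 from 20 µg/mL ran from −0.153 to 1.07, with a median of 0.101 and 14 positive values.

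Interferon-stimulated genes, which cells switch on when interferons bind their receptors, differed by small amounts. Of the 30 tested, 3 were higher and none lower, with a median log2 difference of 0.25. Among all genes tested 0.579% were higher, and the median was −0.00385. IFIT1, which binds foreign RNA, was at 4.31, 5.14 and 3.36 CPM in vehicle and at 5.49 to 7.14 CPM in treated libraries (log2 0.52 ± 0.10 SE, adjusted p = 0.00212). BST2, which tethers budding viruses to the cell, was at 38.7, 36.8 and 37.3 CPM against 39.8 to 50.1 CPM (log2 0.25, adjusted p = 0.0316). The count of higher members ran from 0 to 8 over the leave-one-out fits and was 0 without vehicle library 3, where the adjusted p of IFIT1 was 0.293. In the MHC class I list, 1 of 15 members was higher, the peptide transporter TAP2 (44.1, 41.6 and 37.4 CPM against 41.6 to 50.7 CPM, log2 0.20, adjusted p = 0.0248). Its call was also lost without vehicle library 3 (adjusted p = 0.46).

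A few genes of mucus-secreting goblet cells and membrane mucins were slightly lower. Of 17 goblet and secretory genes tested, 3 were lower and none higher, with a median of −0.189. For comparison, 0.4% of all genes tested were lower, and their median was −0.00385. REG4, a secreted lectin of goblet and enteroendocrine cells, was at 33.3, 35.5 and 38.5 CPM in vehicle and at 26.7 to 31.2 CPM in treated libraries (log2 −0.31 ± 0.06 SE, adjusted p = 0.00131). The secretory transcription factor CREB3L1 was at 194, 204 and 223 CPM against 164 to 191 CPM (log2 −0.22, adjusted p = 0.0111). The gel-forming mucin MUC5B was at 0.982, 1.36 and 1.28 CPM against 0.415 to 1.07 CPM, with overlapping groups (log2 −0.82, adjusted p = 0.0388). The major gel-forming mucins did not pass: MUC2 was at 18, 19.6 and 25.8 CPM against 15.6 to 23.5 CPM (adjusted p = 0.27), and MUC5AC at 168, 187 and 224 CPM against 139 to 178 CPM (adjusted p = 0.0836). Among 8 membrane mucins, MUC17 was lower, at 12, 14.1 and 15.0 CPM against 7.97 to 12.2 CPM (log2 −0.55, adjusted p = 0.0472). In each of these 6 genes the highest of the 12 libraries was a vehicle library, numbered 3 in all but MUC5B, where it was numbered 2. Without vehicle library 3 no goblet gene kept its call, and the adjusted p was 0.15 for REG4 and 0.384 for CREB3L1.

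The other lower genes had mixed roles and the same dependence, since 65 of the 67 lower genes lost their call without vehicle library 3. ZMIZ1, a transcriptional co-regulator, was at 153, 171 and 177 CPM in vehicle and at 125 to 145 CPM in treated libraries (log2 −0.31, adjusted p = 0.00856, and 0.305 without vehicle library 3). NFAT5, the transcription factor of the osmotic stress response, was at 150, 160 and 162 CPM against 125 to 146 CPM (log2 −0.23, adjusted p = 0.00947, and 0.257 without it). BCL6, a transcriptional repressor, was at 32.2, 32.1 and 38.5 CPM against 23.6 to 28.9 CPM (log2 −0.36, adjusted p = 0.0172, and 0.403 without it). In each of these genes every vehicle library lay above every treated library. ZMIZ1 was at 139 to 160 CPM with Poria, 124 to 147 CPM with Glycyrrhizae and 119 to 151 CPM with the 3 other extracts, so the vehicle range overlapped that of Poria alone. The feedback inhibitors of ERK signalling SPRY4 (log2 −0.19, adjusted p = 0.0384) and SPRED2 (log2 −0.18, adjusted p = 0.0345) were the only members called of 24 in their list, against 0.978% of all genes tested. Both calls were lost without vehicle library 3.

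Among the smaller rises, PMVK, a kinase of the mevalonate pathway, was at 13.9, 12.6 and 11.2 CPM against 15.2 to 19.8 CPM (log2 0.47, adjusted p = 0.0388), and NUDT1, which clears oxidised nucleotides, at 12.5, 13.2 and 11 CPM against 14.2 to 19.8 CPM (log2 0.46, adjusted p = 0.0382). The mitotic genes CDK1 (log2 0.23, adjusted p = 0.0219) and BIRC5 (log2 0.29, adjusted p = 0.0444) were the only 2 of 30 called in the mitosis list, against 0.978% of all genes tested. CBR1, a carbonyl reductase, was the only 1 of 28 NRF2 antioxidant genes called (28, 29 and 26.4 CPM against 31.1 to 35.3 CPM, log2 0.26, adjusted p = 0.00245). None of these 5 calls held without vehicle library 3, where the adjusted p lay at 0.15 for CBR1 and higher for the others. Of the 140 called genes that differed by less than 2-fold, 135 lost the call without that library.

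CYP1A1, the textbook target of the aryl hydrocarbon receptor, depended on another library. It was at 4.87, 0.822 and 0.619 CPM in vehicle and at 0.34 to 0.945 CPM in treated libraries, so only the vehicle library numbered 1 was clearly high. The difference of −1.90 on the log2 scale (adjusted p = 0.000449) was −0.37 without that library (adjusted p = 0.55). It was −2.33 without vehicle library 3 (adjusted p = 6.95e-06).

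**Figure D3:**
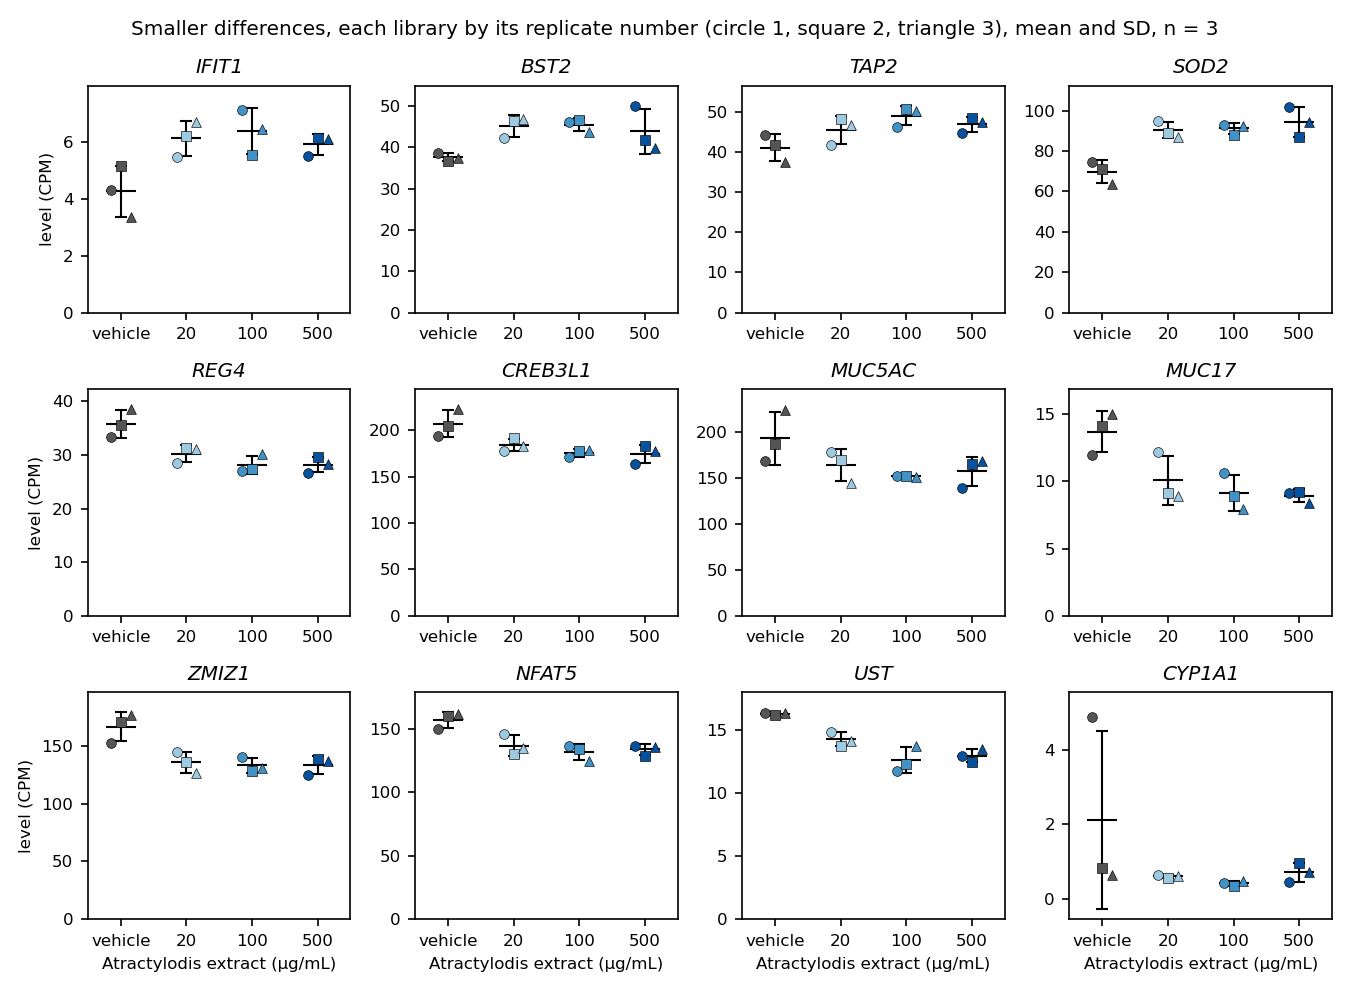
Level in CPM of 12 genes with smaller differences in vehicle and at 20, 100 and 500 µg/mL, each point a library with its shape giving the replicate number, and each bar the mean with its SD (n = 3 per group). In most panels vehicle library 3 (triangle) is the farthest of its group from the treated libraries, UST has 3 near-equal vehicle libraries, and CYP1A1 is high in vehicle library 1 alone.

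Other lists held few or no called genes. None of the 77 cytosolic ribosomal protein genes was called, though their median was 0.112, and none of the 13 mitochondrially encoded genes was, at a median of −0.267. The share of mitochondrial counts given above was over that of every treated library in vehicle libraries 2 and 3, and within the treated range in vehicle library 1. None was called among 31 DNA replication genes, 21 p53 targets, 27 genes of the ATF4 amino acid response or 22 of the unfolded protein response.

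The same genes were followed through the other groups of the study. In the 24 libraries of the Ginseng, Angelicae and Paeoniae extracts CXCL1 was at 1.49 to 3.53 CPM, CXCL8 at 5.21 to 8.31 CPM, PI3 at 4.37 to 7.18 CPM and LCN2 at 88.4 to 124 CPM. These ranges include those of vehicle, and all lie below every Atractylodis library. In the Glycyrrhizae extract, licorice, CXCL1 was at 16.3 to 27.2 CPM, CXCL8 at 23.1 to 30.6 CPM, PI3 at 16.6 to 25 CPM and LCN2 at 142 to 185 CPM. In the Poria extract the levels differed by replicate number. The 3 Poria libraries numbered 1 had CXCL1 at 11.8, 23.0 and 49.1 CPM for 20, 100 and 500 µg/mL, whereas those numbered 2 and 3 had 2.28 to 5.39 CPM.

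**Figure D4:**
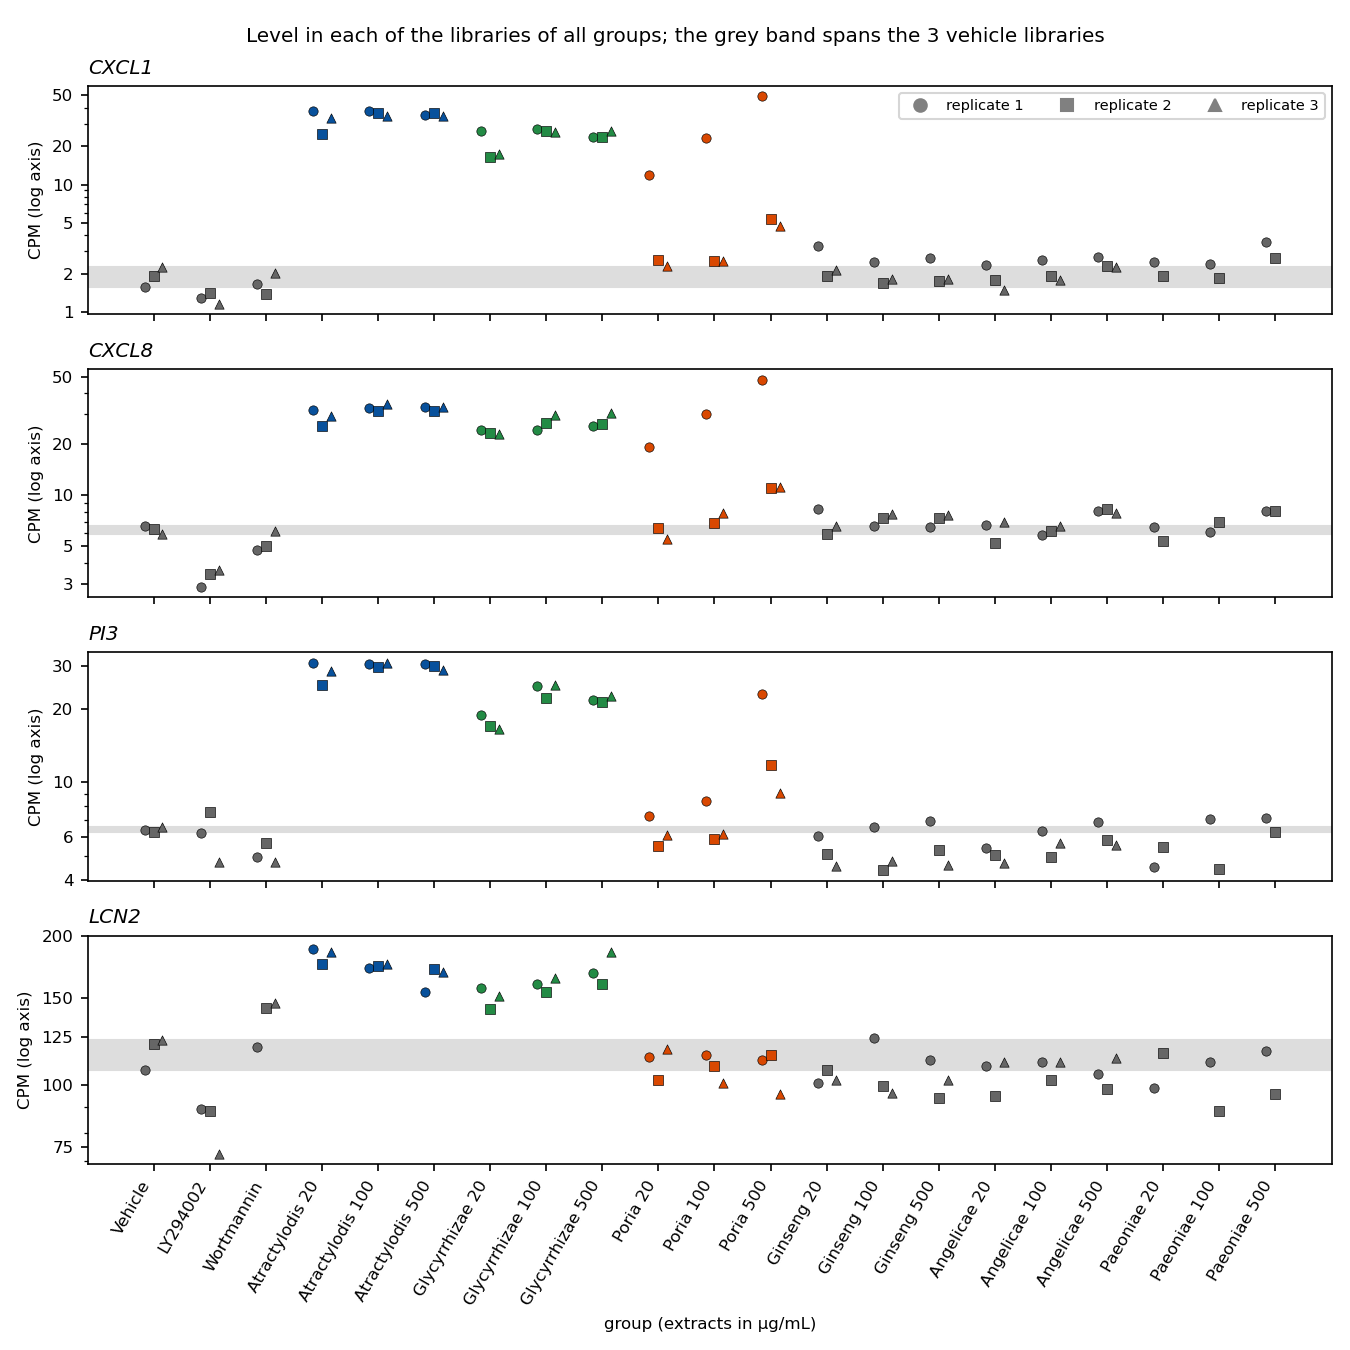
Level in CPM (log axes) of CXCL1, CXCL8, PI3 and LCN2 in each of the 60 libraries by group, with shapes giving the replicate number and the grey band the range of the 3 vehicle libraries. The Atractylodis (blue) and Glycyrrhizae (green) libraries lie above the band in all 4 panels. At each dose Poria (orange) is highest in its library numbered 1 for CXCL1, CXCL8 and PI3. No Poria library lies above the band for LCN2.

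Against Poria at the same doses, which shares the sample code set of Atractylodis, 271 genes differed (1.62%), 135 higher (0.805%) and 136 lower (0.811%) with Atractylodis. This comparison uses the same treated libraries as that with vehicle. PI3 was 1.78 higher on the log2 scale (± 0.10 SE, adjusted p = 6.66e-18), PIGR 2.73 higher (adjusted p = 6.66e-18) and C3 3.09 higher. PIGR was at 0.296 to 1.37 CPM in the 9 Poria libraries, below every Atractylodis library. LCN2 was 0.67 higher (adjusted p = 6.29e-13). CXCL1 was 1.78 higher (adjusted p = 3.87e-05) and CXCL8 1.03 higher (adjusted p = 0.00102), although the 500 µg/mL Poria library numbered 1 exceeded every Atractylodis library in both genes. Of the 20 genes that withstood every omission, 19 were called higher, against 0.805% of all genes tested. Their log2 differences had a median of 1.23 and a range of 0.0864 to 4.66. Choosing them for high levels in these Atractylodis libraries favours positive differences. Of the NF-kB list 11 of 23 members were higher, and 16 were without the 500 µg/mL Poria library numbered 1. Without all 3 Poria libraries numbered 1, a comparison added after the values were seen, 515 genes differed and 19 of the 23 were higher.

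Interferon-stimulated genes were higher and antioxidant genes lower than with Poria. Of 30 interferon-stimulated genes 18 were higher and none lower, while 0.805% of all genes tested were higher. The list's median was 0.262 against 0.00222 over all genes, and leaving out single libraries gave 14 to 19 higher members. IFIT1 was 0.59 higher (adjusted p = 2.18e-08), at 3.36 to 4.57 CPM in the Poria libraries, and HERC6, an interferon-induced ubiquitin ligase, was 0.38 higher. Of 28 NRF2 antioxidant genes, 22 were lower and none higher, with a median of −0.243, while 0.811% of all genes tested were lower. Against vehicle, 1 of these 28 genes was higher with Atractylodis and none lower, with a median of 0.0346. AKR1C1, an aldo-keto reductase, gave −0.66 on the log2 scale, at 15.4 to 18.9 CPM with Atractylodis and 19.8 to 42.6 CPM with Poria. NQO1, a quinone reductase, gave −0.29. ALDH3A1, an aldehyde dehydrogenase and target of the aryl hydrocarbon receptor, was at 25.4 to 29.8 CPM with Atractylodis, 32.8 to 61.2 CPM with Poria and 27.9 to 29.3 CPM in vehicle (log2 −0.60, adjusted p = 5.6e-19). For ALDH3A1 the Atractylodis libraries thus spanned the vehicle range and the Poria libraries lay above it. Goblet genes, membrane mucins and mitotic genes gave no call against Poria, and their medians lay between −0.0533 and −0.00142.

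**Figure D5:**
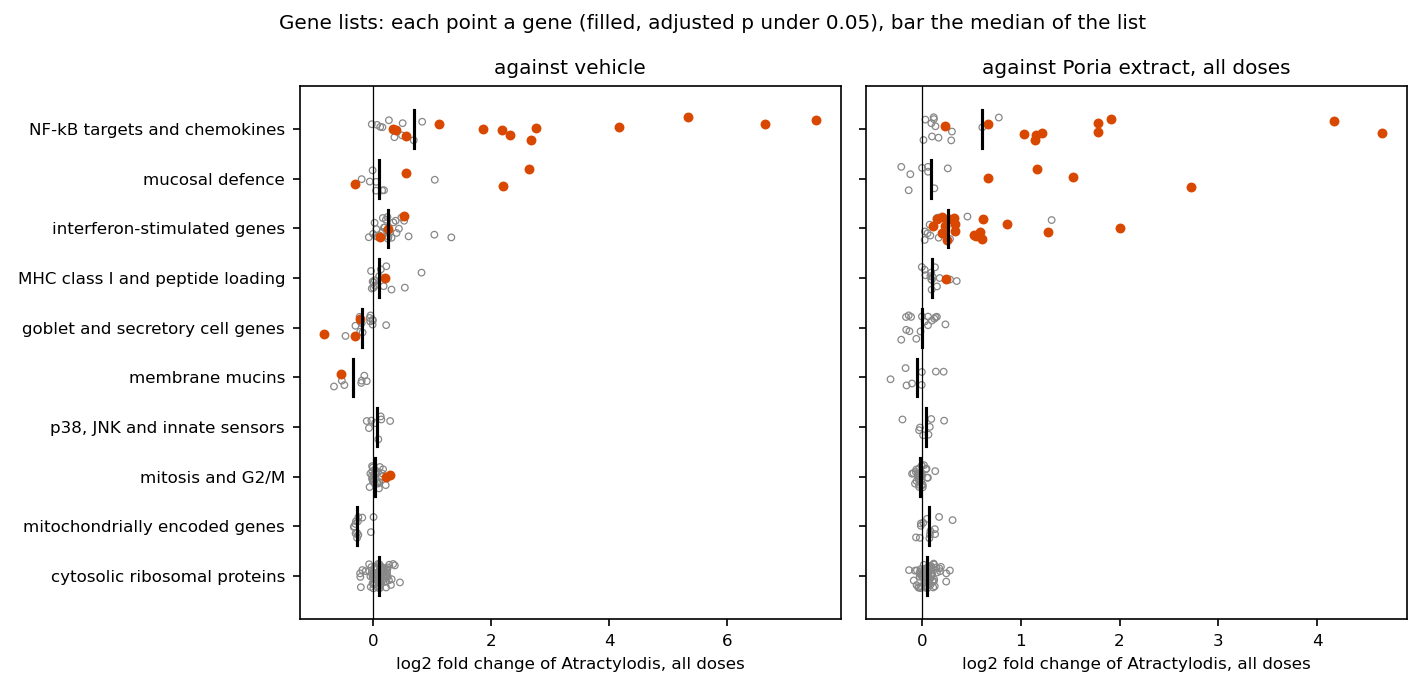
Log2 fold change of the genes of 10 lists in Atractylodis, all doses, against vehicle (left) and against Poria, all doses (right), each point a gene, filled where its adjusted p was under 0.05, with a bar at the list's median. NF-kB targets and chemokines reach the largest values on both sides, and interferon-stimulated genes have 3 filled points on the left and 18 on the right.

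Glycyrrhizae, added after the values were seen and drawn from another code set, was the nearest extract in these genes. Against it 55 genes differed (0.328%), 44 higher (0.262%) and 11 lower (0.0656%) with Atractylodis. At an unadjusted p under 0.05 there were 1321 (7.88%). The count fell to between 21 and 36 when any 1 of 9 libraries was left out, with the lowest value without the 100 µg/mL Glycyrrhizae library numbered 1. Of the 20 genes, 4 were higher: PIGR by 0.59 ± 0.13 on the log2 scale (SE, adjusted p = 0.0233), PI3 by 0.49 ± 0.09 (adjusted p = 0.00525), CFB by 0.48 ± 0.11 (adjusted p = 0.0269) and PDZK1IP1 by 0.19 ± 0.04 (adjusted p = 0.0129). CXCL1 was 0.56 higher, with an unadjusted 95% interval from 0.04 to 1.08, and did not pass (adjusted p = 0.565). CCL20 was at 4.45 to 6.99 CPM with Atractylodis and 2.03 to 4.37 CPM with Glycyrrhizae, and did not pass either (adjusted p = 0.477). The spread of both genes in this fit takes in the Poria libraries, where CXCL1 was at 49.1, 5.39 and 4.71 CPM at 500 µg/mL. These missed calls therefore do not show equal levels. The differences of the 20 genes ran from −0.0254 to 0.852 with a median of 0.478. These genes were chosen for being high in the same Atractylodis libraries, which favours positive differences. Of the NF-kB list 1 of 23 members was called, and none of 30 interferon-stimulated genes was. Among lower genes, ALDH3A1 gave −0.32 (adjusted p = 1.59e-08).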

How the data were processed

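The table the authors deposited holds unnormalised expected counts from RSEM for 60675 Ensembl genes in 273 columns. The 60 columns matching labelled samples were used, and 213 columns were not. Per the submitters' processing notes the tools were FastQC 0.11.9, Trim Galore 0.6.5, STAR 2.7.3a and RSEM 1.3.3 on GRCh38. Which annotation release was used, and whether strand was, is unstated in the labels, so overlapping and antisense genes may share reads. Per the labels' protocols, directional mRNA libraries were read in pairs on an MGI instrument.

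Expected counts were rounded and fitted in edgeR 4.0.16 (limma 3.58.1, R 4.3.3) with TMM scaling, filterByExpr (minimum count 10, minimum total 15) and 21 group means over all 60 libraries (39 residual degrees of freedom). The quasi-likelihood F test was adjusted by Benjamini-Hochberg over 16767 genes in each comparison, at 0.05. All doses against vehicle is the mean of the 3 dose means minus vehicle. CPM are TMM-scaled. The procedure was tested on simulated data with the same spread for all genes and no deviant library. That test therefore does not cover the dependence on single vehicle libraries seen here. Gene positions come from GENCODE 29. Intervals from counts cover counting error only.

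Members and gene lists were chosen with earlier results of these data known. Genes named for a comparison were the up to 12 higher and 12 lower with an adjusted p under 0.05, a mean of at least 5 CPM and groups that do not overlap, by size of change, and up to 4 members of each list. CXCL2, CCL20, CXCL6, C3, CFB, IL17C, IL4I1, TNIP1, LAS1L, SLC6A14 and MIR3142HG were among the genes named after their values were seen. So were list members that were not called. The values of 1 called gene are not reported here.

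Replicate numbers were not used as pairs. Alternatives were DESeq2 1.42.0, its size-factor scaling (RLE), a minimum count of 30, no filter, only the compared libraries, a replicate block and leaving out each library.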

Additional observations from a re-analysis of the deposited data

Results flagged for a closer look

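Of 65 genes examined for a single library far from the other 8 of the 9 treated ones, 5 stood out by Dixon's criterion, which chance meets in about 1 of 20 groups. The 20 µg/mL library numbered 2 was the lowest for 3 of them. CXCL1 was at 25 CPM there against 33.5 CPM in the next lowest library, PI3 at 25 against 28.6 CPM, and the ribosomal protein pseudogene RPL12P16 at 2.55 against 4.51 CPM. CFB was highest at 4.64 CPM in the 500 µg/mL library numbered 1, with the next at 4.17 CPM. AUTS2 was highest at 17.9 CPM in the 20 µg/mL library numbered 1, with the next at 15.8 CPM. The CXCL1 and PI3 values remained far above vehicle.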

How the results depend on the processing

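Direction was checked for 114 results of single genes in a comparison, wherever an alternative run gave an adjusted p. None of those values changed direction. Counts of called genes moved widely. With DESeq2 the count was 465 for all doses against vehicle (9427 genes had no adjusted p), 113 at 500 µg/mL and 109 at 100 µg/mL. Of the 164 genes called for all doses, DESeq2 called 101 and gave the other 63 no adjusted p, and of the 42 at 500 µg/mL it called 18 and gave 24 none. Of the 21 genes that withstood every omission it called 3 and gave 18 no adjusted p, with an unadjusted p of at most 2.79e-06. With no filter on low counts it was 1121 for all doses, 746, 667 and 546 at 500, 100 and 20 µg/mL, 144 for 500 against 20 µg/mL, 209 for any dose difference, 657 against Poria and 208 against Glycyrrhizae. With only the compared libraries it was 96 for all doses, 67 of them among the 164, and 38 at 100 µg/mL, 28 of them among the 61. With the replicate number as a block it was 411 for all doses, 117 at 100 µg/mL, 430 against Poria and 116 against Glycyrrhizae, and all 164 genes were among the 411. Same-numbered libraries deviated together in part. Correlations of residuals over 0.1 were found for 2 of 9 same-numbered pairs of vehicle and treated libraries (−0.23 to 0.407), 5 of 9 pairs between doses (−0.105 to 0.393, with all 3 between 100 and 500 µg/mL over it), 19 of 27 pairs with Poria and 18 of 27 with Glycyrrhizae. Between vehicle and each dose, 5 of 18 matches were best with the own number, which random matching among 3 libraries would also reach. Without the 3 Poria libraries numbered 1 it was 515 against Poria. Size-factor scaling gave 168 and a minimum count of 30 gave 223 for all doses. The causes were not tested. Leaving out single libraries gave 23 to 429 genes for all doses, 21 to 112 at 500 µg/mL, 23 to 147 at 100 µg/mL, 16 to 35 at 20 µg/mL, 0 to 0 for both dose tests, 201 to 368 against Poria and 21 to 63 against Glycyrrhizae. Of the values for single genes under these alternatives, 1631 kept their side of the threshold and 284 lost it. With 3 vehicle libraries, differences under 2-fold rest on few libraries.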

Other observations

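Further genes of innate signalling and metabolism, named here after their values were seen, differed by small amounts between all doses and vehicle. APOL1, an innate defence protein, was at 20.3, 20.2 and 18.4 CPM in vehicle and at 22.1 to 25.9 CPM in treated libraries (log2 0.30, adjusted p = 0.0175 in edgeR, and 0.351 without vehicle library 3). TIFA, an adaptor that links a bacterial sugar sensor to NF-kB, was at 9.73, 9.99 and 9.37 CPM against 10.9 to 12.9 CPM (log2 0.28, adjusted p = 0.0275, and 0.346 without vehicle library 3). NAMPT, an enzyme of NAD synthesis, was at 173, 171 and 160 CPM against 170 to 198 CPM, with overlapping groups (log2 0.17, adjusted p = 0.00684, and 0.335 without it). GPX3, a secreted glutathione peroxidase, was lower, at 31.4, 32.8 and 32.6 CPM against 26.1 to 29.5 CPM (log2 −0.21, adjusted p = 0.00501, and 0.104 without it). In GPX3 and TIFA the 3 vehicle libraries lay close together and apart from all 9 treated ones.

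The genes with the smallest unadjusted p between 500 and 20 µg/mL, none of which passed adjustment (adjusted p = 0.876), were XKR8, a phospholipid scramblase (log2 −0.39, 95% interval −0.61 to −0.18), the antisense genes TENM3-AS1 (−0.48) and ITFG2-AS1 (−1.66), RRM2, a subunit of ribonucleotide reductase (0.12), and CHUK, a kinase of the NF-kB pathway (0.18, 95% interval 0.09 to 0.26).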
